A study of Mus musculus with 8 samples.

Results

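The 10 genes examined here encode tissue-specific regulators of alternative splicing and were followed across differentiation of mouse embryonic stem cells (ESCs). They are Esrp1, Esrp2, Rbfox2, Mbnl1, Mbnl2, Mbnl3, Ptbp1, Ptbp2, Celf1 and Celf2. The genes were chosen by symbol from the 24421 genes that each count file lists, and all 10 were found in every file. The samples came from R1 cells, an established ESC line, and fall into 4 groups of 2 libraries each. Undiff cells had received no retinoic acid (RA). Day4 cells were embryoid bodies, free-floating aggregates in which ESCs differentiate. By the study's methods, these first grew for 4 days in medium without leukaemia inhibitory factor. They were then exposed to RA for 4 days at 2 µM, the dose in the methods. RA, removal of that factor and growth as aggregates therefore cannot be told apart between the states. One label gives the dose in another unit, and the labels name the tissue of all samples as embryoid bodies whereas the methods describe Undiff as ESCs kept in growth medium with leukaemia inhibitory factor. No genetic change was made in either state, and whole embryoid bodies, which hold several kinds of cell, entered the Day4 libraries. Per the methods, the 2 replicates of a state were grown and treated separately, and both kits were applied to each state. ONT Direct RNA passed the native polyadenylated RNA (500 ng of input) through the pore, and ONT cDNA sequenced PCR-amplified copies of it (50 ng of input). The comparisons ask whether each regulator changed between the states, whether the kits gave it the same level, and whether the change between the states differed between the kits.

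Splicing regulators of this kind bind short motifs in the introns and exons of pre-mRNA, and an exon is kept or skipped depending on which protein is bound and on which side of the exon it sits. Esrp proteins maintain the exon choices of epithelial cells, and Rbfox, Mbnl and Celf proteins are best known from muscle, heart and brain, where Mbnl and Celf proteins act in opposite directions on many shared exons. Ptbp1 is present in most dividing cells and represses exons that neurons use, and its paralog Ptbp2 takes its place early in neural differentiation. ESCs have an exon programme of their own, in which Mbnl1 and Mbnl2 are known to repress ESC-specific exons.

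Some of these genes also act on the splicing of their own family, and 2 pairs of paralogous exons are known targets of that control. Ptbp1 promotes skipping of a 34-base exon in its own transcript and in that of Ptbp2, which shifts the reading frame and sends the transcript to decay. In GRCm38 (the assembly named mm10), the GENCODE annotation places these coding exons at chr10:79862014-79862047 on the plus strand in Ptbp1 and at chr3:119724612-119724645 on the minus strand in Ptbp2. In each gene 3 annotated transcripts hold the exon and 2 skip it. The sequences are shown 5′ to 3′ because they show how alike the exons of the paralogs are. Capitals mark the positions at which the paralogs differ.
Ptbp1: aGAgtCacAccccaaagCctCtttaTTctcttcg
Ptbp2: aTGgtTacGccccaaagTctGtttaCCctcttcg
They differ at 8 of the 34 positions and are 76.5% identical. The second pair is a 54-base exon that Mbnl proteins repress in their own transcripts and that helps to keep the protein in the nucleus. It lies at chr3:60614683-60614736 in Mbnl1 and at chr14:120395712-120395765 in Mbnl2, on the plus strand in both. It is held by 4 annotated Mbnl1 transcripts and skipped by 6, and held by 3 Mbnl2 transcripts and skipped by 3.
Mbnl1: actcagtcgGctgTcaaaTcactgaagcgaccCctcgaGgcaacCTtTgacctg
Mbnl2: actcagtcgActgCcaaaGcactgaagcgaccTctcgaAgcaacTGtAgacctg
These also differ at 8 positions and are 85.2% identical over 54 bases. Unlike the Ptbp exon, this one is a multiple of 3 bases long, so that skipping it keeps the frame. The values below are reads per whole gene and do not tell transcripts with such an exon from those without it.

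The libraries held between 283461 and 2088592 reads on genes, and replicate 2 was the deeper one in every group. The 10 regulators together took 967 and 1112 reads per 1e6 reads on genes (CPM) in Direct RNA Undiff and 827 and 1023 CPM in Direct RNA Day4. In cDNA they took 212 and 283 CPM in Undiff and 347 and 549 CPM in Day4. A count of 3 reads, taken as the smallest amount a library can show, corresponded to between 1.44 and 10.6 CPM. Of the 8 pluripotency markers examined, all 8 were called lower in Day4 on both platforms, and their summed level fell from between 11482 and 13725 CPM to 116 and 544 CPM in Direct RNA. In cDNA Day4 that sum was 84.2 CPM in replicate 1 and 944 CPM in replicate 2, against at least 21479 CPM in Undiff. Of 8 neural markers, Tubb3 and Stmn2 were called lower and none higher on either platform. Of 8 markers each, 5 mesenchymal genes were called higher on both platforms, and 5 (Direct RNA) and 3 (cDNA) visceral endoderm genes. Fn1 (mesenchymal) and Amn (visceral endoderm) went the other way with both kits. Their log2 values were -0.55 and -2.32 by Direct RNA, and -0.91 and -2.41 by cDNA. Neither was called, and the Amn mean count of 2.79 by Direct RNA lay under the minimum of 5. Among all genes of that mean, 9.54% (Direct RNA) and 8.69% (cDNA) were called higher. Of 8 muscle markers, Acta2 was called higher with both kits and Des in Direct RNA, while Des had a log2 fold change of -0.82 in cDNA and Tagln had -1.19 in Direct RNA and -2.02 in cDNA, none of them called. In such mixed samples, fewer cells of a type and less RNA per cell cannot be told apart.

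**Figure D1:**
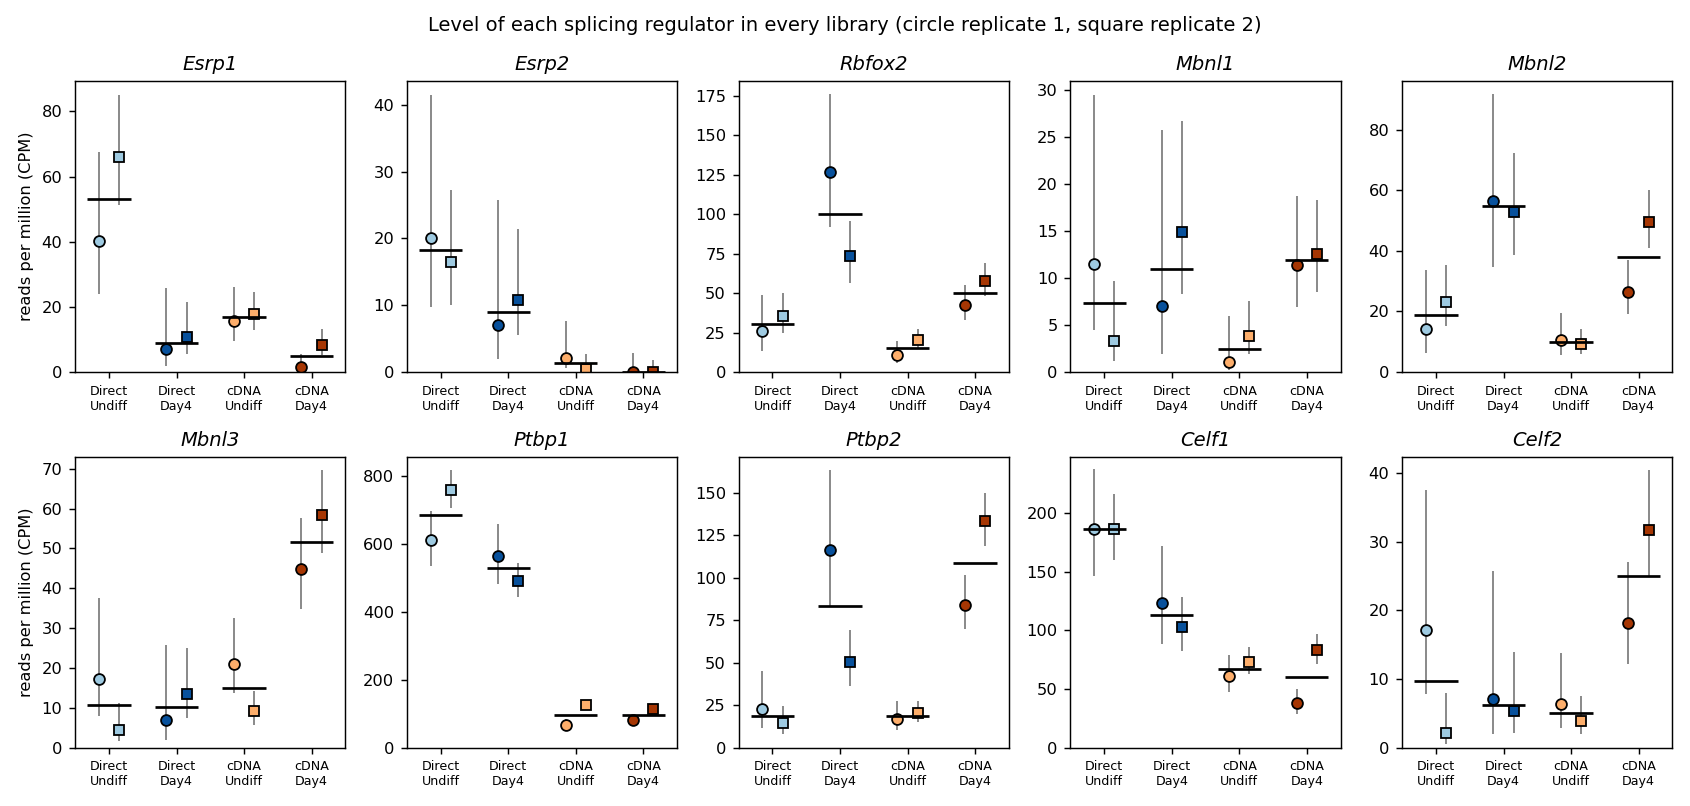
Level of each of the 10 regulators in every library, in CPM on linear axes that start at 0. Points are libraries, circles replicate 1 and squares replicate 2, grey bars are 95% Wilson intervals for counting error, and black lines are group means. Ptbp2 and Rbfox2 lie higher in Day4 with both kits, Esrp1 lies lower, and Ptbp1 reaches 760.3 CPM in Direct RNA and at most 125 CPM in cDNA.

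Ptbp2, the paralog that takes over from Ptbp1 in developing neurons, was the one regulator that DESeq2 called higher in Day4 on both platforms. In Direct RNA it had 23.0 and 14.3 CPM in Undiff (8 and 13 reads) and 116 and 50.2 CPM in Day4 (33 and 37 reads). The cDNA libraries held 16.9 and 20.6 CPM in Undiff and 84.2 and 133 CPM in Day4, the latter from 111 and 277 reads. Both Day4 libraries lay above both Undiff libraries with each kit. The mean level was 4.47-fold higher in Day4 in Direct RNA and 5.81-fold higher in cDNA. With DESeq2 the shrunken log2 fold change was 1.95 ± 0.69 (SE, n = 2 per state) with an adjusted p of 0.0429 in Direct RNA. The cDNA value was 2.13 ± 0.51 with an adjusted p of 0.000645. The cDNA call was lost without Day4 replicate 2 (log2 fold change 1.86, adjusted p = 0.237). The Direct RNA call was lost without any 1 of the 4 libraries. Such a fit leaves 1 library in a state, which is assumed to vary like the pair of the other state, and calls over all genes fell from 1660 to between 393 and 797 as well. The log2 fold change was then 2.04 (adjusted p = 0.25) and 1.54 (0.752) without Undiff replicates 1 and 2, and 1.22 (0.81) and 2.30 (0.188) without Day4 replicates 1 and 2. By group mean the order was cDNA Day4, Direct RNA Day4, cDNA Undiff and Direct RNA Undiff, and the libraries of the 2 Day4 groups overlapped, as did those of the 2 Undiff groups. The summed level of the 8 neural markers was lower in Day4, from between 636 and 637 CPM in Undiff to between 91.7 and 98.97 CPM in Day4 for Direct RNA and from between 628 and 790.0 CPM to between 61.1 and 69.8 CPM for cDNA. In Undiff, most of that sum came from Stmn2 and Tubb3, both called lower with each kit. Stmn2, a microtubule regulator of neurons, fell from 456 and 477 CPM in Direct RNA Undiff to 31.8 and 14.9 CPM in Day4, and from 551 and 612 CPM to 21.2 and 15.4 CPM in cDNA. Nes, a filament gene of neural progenitors, had 5.74 and 12.1 CPM in Direct RNA Undiff and 38.8 and 54.2 CPM in Day4, and 1.05 and 2.39 CPM against 11.4 and 15.4 CPM in cDNA, and was not called with either kit (adjusted p = 0.113 and 0.16). The part of neural cells in the level of Ptbp2 was not tested.

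Ptbp1, the repressor of neuronal exons, had the highest level per kilobase of the 10 in every group, although in cDNA Day4 its mean of 97.3 CPM, unscaled for length, was below the 109 CPM of Ptbp2. It had 611 and 760.3 CPM in Direct RNA Undiff and 564 and 492 CPM in Direct RNA Day4. With the cDNA kit these were 66.4 and 125 CPM in Undiff and 80.4 and 114 CPM in Day4. The Direct RNA libraries did not overlap between the states and the cDNA libraries did. Neither kit gave a call. The log2 fold change was -0.49 ± 0.29 (adjusted p = 0.361) by Direct RNA, and -0.30 ± 0.46 (adjusted p = 0.877) by cDNA. In cDNA the direction depended on the scaling, since the ratio of mean CPM, Day4 to Undiff, was 1.01.

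The share of Ptbp2 among the Ptbp reads was higher in both Day4 libraries than in both Undiff libraries with each kit, which was not tested. The genes of this family are similar in sequence, and reads could be split between them in counting. Of all reads on Ptbp1, Ptbp2 and Ptbp3, Ptbp2 held 3.39% and 1.78% in Direct RNA Undiff, and 14.7% (95% Wilson interval 10.7 to 19.97) and 8.62% (6.32 to 11.7) in Direct RNA Day4. In cDNA it held 16.0% and 12.7% in Undiff and 40.8% (35.1 to 46.7) and 47.5% (43.5 to 51.6) in Day4. Between Ptbp1 and Ptbp2 alone, Ptbp2 held 52.5% ± 1.94 (SD, n = 2) of the reads in cDNA Day4 and 13.2% ± 5.55 in Direct RNA Day4. These intervals cover counting error only and not the spread between cultures, and PCR copies are not independent molecules. For the share of Ptbp1 they did not overlap between the replicates of Direct RNA Day4 (65.2 to 76.9 and 80.9 to 87.7) or of cDNA Undiff (53.2 to 71.8 and 72.5 to 81.4), and for Ptbp3 they did not overlap between the replicates of Direct RNA Day4, cDNA Undiff and cDNA Day4.

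**Figure D2:**
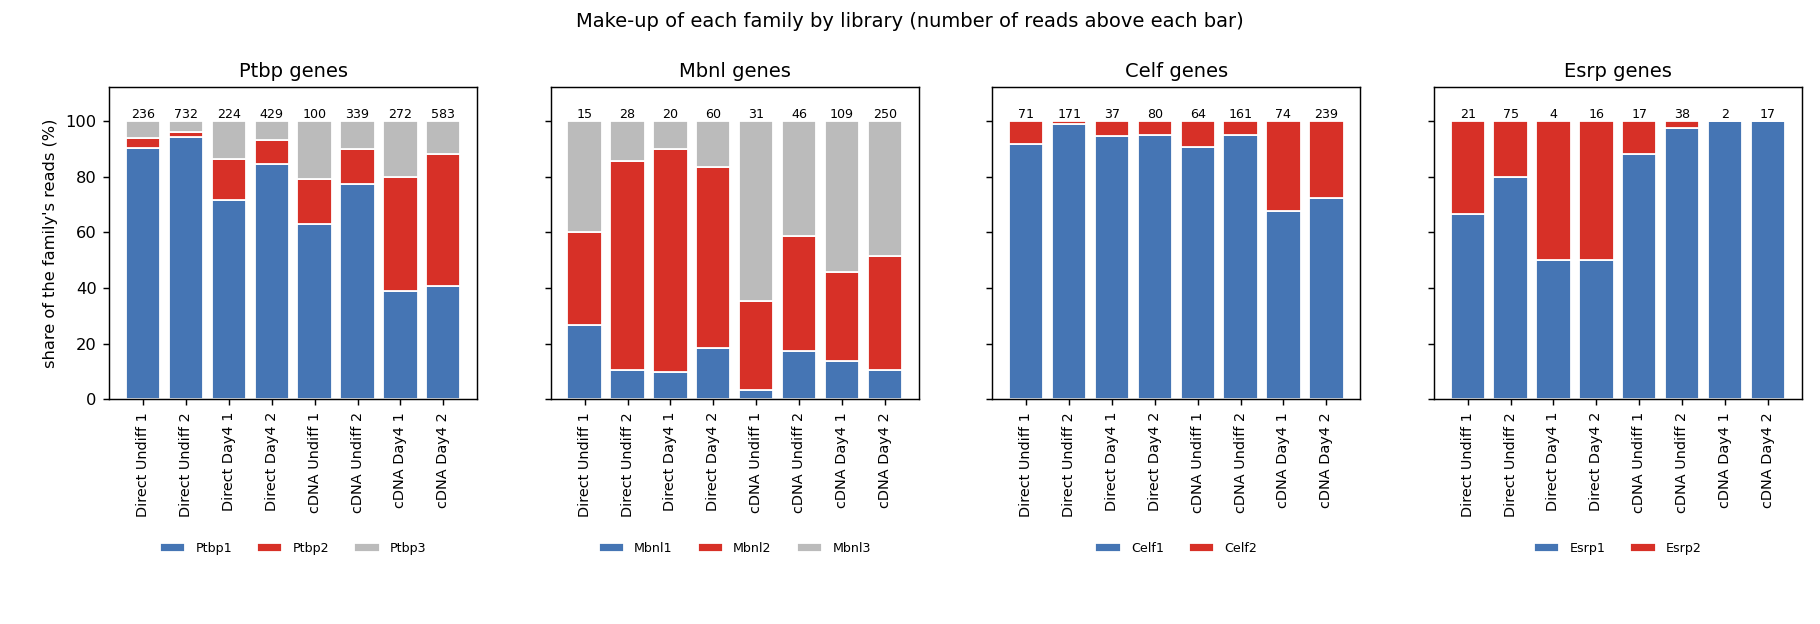
Share of each family's reads, in percent, held by each paralog in the 8 libraries, with the number of reads of the family above each bar. The Ptbp2 share lies between 1.78% and 3.39% in Direct RNA Undiff and between 40.8% and 47.5% in cDNA Day4, and several Esrp and Mbnl bars rest on 20 reads or fewer.

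Esrp1, an RNA-binding protein that keeps epithelial exon choices, was called lower in Day4 in Direct RNA. In Direct RNA it had 40.2 and 66.1 CPM in Undiff (14 and 60 reads) and 7.06 and 10.8 CPM in Day4 (2 and 8 reads). The cDNA levels were 15.8 and 17.7 CPM in Undiff and 1.52 and 8.18 CPM in Day4 (2 and 17 reads). The states did not overlap with either kit. Since both Day4 replicates 1 had only 2 reads, the change is given from the summed reads of each state. In Direct RNA 10 reads in Day4 against 74 in Undiff gave a rate ratio of 0.166 (95% exact interval for counting error 0.0766 to 0.323). In cDNA 19 against 52 reads gave 0.327 (0.182 to 0.562). The log2 fold change was -2.41 ± 0.81 with an adjusted p of 0.0312 in Direct RNA, which was called. In cDNA it was -1.94 ± 0.86 with an adjusted p of 0.144, which DESeq2 did not call, while the quasi-likelihood test of edgeR gave -1.99 with an adjusted p of 0.00383. Without Day4 replicate 1 the cDNA value was -1.20 (adjusted p = 0.904), and without Day4 replicate 2 it was -2.92 (0.24). As with Ptbp2, the Direct RNA call was lost in every fit that left out 1 of the 4 libraries, where a lone library is assumed to vary like the other pair and calls over all genes fell to between 393 and 797, with a log2 fold change of -2.65 (adjusted p = 0.171) and -1.76 (0.872) without Undiff replicates 1 and 2, and of -2.02 (0.276) and -2.47 (0.326) without Day4 replicates 1 and 2. Day4 replicate 2, which held more Esrp1 than replicate 1 in cDNA, also held more of the summed pluripotency markers (944 against 84.2 CPM), and the part of these in the difference between replicates was not tested. Of the 8 epithelial markers, Cdh1 and Epcam, an adhesion molecule each, were called lower with both kits, and the keratins Krt18 and Krt19 were called higher with both. The summed level of these 8 genes was 804 to 824 CPM in Undiff and 882 to 978 CPM in Day4 for Direct RNA, and 668 to 807 CPM and 735 to 947 CPM for cDNA. That of the 8 mesenchymal markers was 411 to 528 CPM and 2522 to 3916 CPM for Direct RNA, and 82.2 to 108 CPM and 651 to 782 CPM for cDNA. The part of such cells in the level of Esrp1 was not tested.

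Esrp2, the paralog of Esrp1, had 20.1 and 16.5 CPM in Direct RNA Undiff and 7.06 and 10.8 CPM in Direct RNA Day4. In cDNA it had 2 and 1 reads in Undiff and none in Day4, where 3 reads would have been 2.28 and 1.44 CPM. The Direct RNA states did not overlap, and the log2 fold change of -0.92 ± 1.02 was not called (adjusted p = 0.768). The cDNA mean count of 1.12 lay under the minimum of 5, and no fold is given. Of the Esrp reads, Esrp2 held 33.3% and 20% in Direct RNA Undiff and 50.0% in both Day4 libraries, where the intervals of 15.0 to 85.0 and 28.0 to 72.0 show how few reads these were (4 and 16 in all).

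Rbfox2, whose protein binds UGCAUG elements beside exons, lay higher in all Day4 libraries with both kits. In Direct RNA it had 25.8 and 35.3 CPM in Undiff and 127 and 73.2 CPM in Day4. In cDNA it had 10.5 and 20.1 CPM in Undiff and 42.5 and 57.8 CPM in Day4. The mean ratio of Day4 to Undiff was 3.28 in Direct RNA and 3.27 in cDNA. DESeq2 gave log2 fold changes of 1.47 ± 0.59 (adjusted p = 0.0939) and 1.30 ± 0.59 (adjusted p = 0.163), neither of which was called. The quasi-likelihood test of edgeR called both, with 1.46 (adjusted p = 0.00345) in Direct RNA and 1.36 (adjusted p = 0.0312) in cDNA. The order of the 4 groups was Direct RNA Day4, cDNA Day4, Direct RNA Undiff and cDNA Undiff, and no neighbours in it overlapped.

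Mbnl2, a repressor of ESC-specific exons, had the same order of groups, again without overlap. In Direct RNA it had 14.3 and 23.1 CPM in Undiff and 56.4 and 52.9 CPM in Day4. In cDNA it had 10.5 and 9.10 CPM in Undiff and 26.6 and 49.6 CPM in Day4. DESeq2 called it with neither kit, at a log2 fold change of 1.29 ± 0.72 (adjusted p = 0.313) for Direct RNA, and of 1.54 ± 0.66 (adjusted p = 0.127) for cDNA. With edgeR it was called in both, at 1.31 (adjusted p = 0.0319) and 1.66 (adjusted p = 0.0109).

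For both Mbnl1 and Mbnl3 the states overlapped in Direct RNA and did not overlap in cDNA. Mbnl1, the family member most studied in muscle, had 1 to 26 reads per library. It had 11.5 and 3.31 CPM in Direct RNA Undiff and 7.06 and 14.9 CPM in Direct RNA Day4, which overlapped (log2 fold change 0.50 ± 1.17, adjusted p = 0.93). The cDNA libraries gave 1.05 and 3.83 CPM in Undiff and 11.4 and 12.5 CPM in Day4, which did not overlap (log2 fold change 1.66 ± 1.01, adjusted p = 0.374). Mbnl3, an X-linked member linked to undifferentiated muscle precursors, had 17.2 and 4.41 CPM in Direct RNA Undiff and 7.06 and 13.6 CPM in Direct RNA Day4. The log2 fold change there was -0.02 ± 1.13 (adjusted p = 0.994), and it changed sign with edgeR (0.25). In cDNA Mbnl3 had 21.1 and 9.10 CPM in Undiff and 44.8 and 58.2 CPM in Day4 without overlap, with a log2 fold change of 1.41 ± 0.62 (adjusted p = 0.143). With 1 library left out, the cDNA values ran from 1.12 to 2.27 for Mbnl1 and from 0.81 to 2.03 for Mbnl3. The edgeR test called both genes in cDNA, Mbnl1 at 1.77 (adjusted p = 0.0389) and Mbnl3 at 1.54 (adjusted p = 0.0146). Of the Mbnl reads, Mbnl2 held 72.5% ± 10.6 and Mbnl3 13.3% ± 4.71 in Direct RNA Day4, against 36.7% ± 6.43 and 51.3% ± 4.05 in cDNA Day4 (SD, n = 2). Within cDNA these shares were close to those of Undiff, where Mbnl2 held 36.8% ± 6.397 and Mbnl3 52.9% ± 16.4.

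Celf1, a widely expressed antagonist of Mbnl proteins at many exons, had 187 and 186 CPM in Direct RNA Undiff and 123 and 103 CPM in Direct RNA Day4. These libraries did not overlap, and the log2 fold change was -0.82 ± 0.41 with an adjusted p of 0.222. By contrast, cDNA gave 61.1 and 73.3 CPM in Undiff and 37.9 and 83.3 CPM in Day4, with both Undiff libraries between the Day4 ones (log2 fold change -0.49 ± 0.50, adjusted p = 0.737, and between -0.95 and -0.055 with 1 library left out). Celf2, the paralog more restricted to brain, muscle and blood cells, had 2 to 6 reads per Direct RNA library. These were 17.2 and 2.20 CPM in Undiff and 7.06 and 5.42 CPM in Day4, which overlapped (log2 fold change -0.49 ± 1.24, adjusted p = 0.93). In cDNA it had 6.32 and 3.83 CPM in Undiff and 18.2 and 31.8 CPM in Day4 without overlap, with a log2 fold change of 1.86 ± 0.79 (adjusted p = 0.12). The quasi-likelihood test of edgeR called this one at 2.07 (adjusted p = 0.00316). Celf2 held 9.38% and 4.97% of the Celf reads in cDNA Undiff and 32.4% and 27.6% in cDNA Day4, while in Direct RNA its mean share was 4.81% in Undiff and 5.20% in Day4.

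The calls among the 10 regulators were set against those over all genes. A gene was called with DESeq2 when its Benjamini-Hochberg adjusted p over all genes was at most 0.05, its log2 fold change at least 1 in size and its mean normalized count at least 5. In Direct RNA 8 of the 10 reached that mean, 1 of them was called higher (Ptbp2) and 1 lower (Esrp1), and across all genes of that mean 9.54% were called higher and 7.67% lower. In cDNA 9 of the 10 reached it, 1 was called higher (Ptbp2) and 0 lower, against 8.69% and 9.24% of all genes. At an unadjusted p of at most 0.05 there were 4 of the 8 in Direct RNA, against 30.7% of all genes of that mean, and 6 of the 9 in cDNA, against 31.2%. With the same thresholds edgeR called 4 of the 8, against 33.8% of all genes, and 7 of the 9, against 32.6%. Among the 8 with that mean in Direct RNA, both Day4 libraries lay above both Undiff libraries for 3 and below for 4, against 37.3% and 30.3% of all genes. For cDNA, 6 of 9 lay above and 1 below, against 43.1% and 23.2%. The median log2 fold change of those regulators was -0.25 in Direct RNA, where the median of all genes was 0.03, and 1.41 in cDNA, where it was 0.00. These sets differ between the kits, since Esrp2 reached the mean of 5 in Direct RNA only and Mbnl1 and Celf2 in cDNA only. Mbnl1 and Celf2 did so mainly through Day4, with 41 and 90 cDNA reads there against 9 and 14 in Undiff. The medians and counts of the kits are therefore not of the same genes. DESeq2 scaling lowered the log2 difference of Day4 from Undiff by 0.10 in Direct RNA and 0.33 in cDNA relative to CPM, so that log2 fold changes stand relative to that shift.

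**Figure D3:**
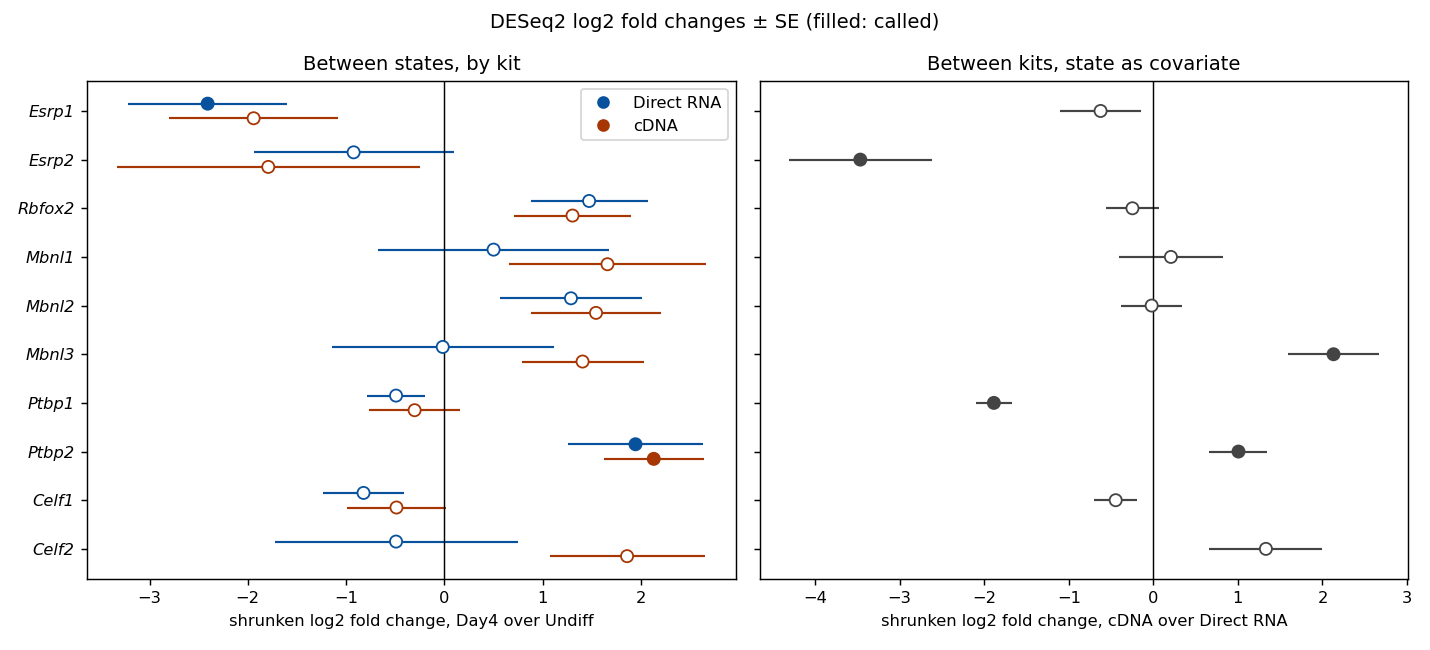
Shrunken log2 fold changes from DESeq2 with their SE (horizontal bars), between the states for each kit (left) and between the kits at equal state (right), where filled points were called. Ptbp2 is the one filled pair between the states, and Ptbp1, Esrp2, Mbnl3 and Ptbp2 are filled between the kits.

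The kits gave different levels for several regulators in the same states. All 8 libraries entered this test, state being its covariate. The DESeq2 scale raised the difference of cDNA from Direct RNA by 0.75 (log2) relative to CPM. On that scale 2 of the 10 were called higher in cDNA and 2 lower, against 24.7% and 26.6% of all genes with a mean of at least 5. Ptbp1 was lower in cDNA by a log2 fold change of -1.89 ± 0.21 (adjusted p = 9.85e-18). Its mean CPM was 7.15-fold higher in Direct RNA than in cDNA in Undiff and 5.43-fold higher in Day4, and no library of one kit overlapped the other. Esrp2 was lower by -3.47 ± 0.84 (adjusted p = 0.000197), from a mean count of 5.06, close to the minimum. Its mean fell under 5, and the call with it, without either Direct RNA Undiff library or without Direct RNA Day4 replicate 2, with log2 fold changes of -3.29, -3.37 and -3.10. Mbnl3 was higher in cDNA by 2.13 ± 0.53 (adjusted p = 0.000321), with CPM ratios of 1.40 in Undiff, where the libraries overlapped, and 5.00 in Day4, where they did not. Ptbp2 was higher by 1.01 ± 0.34 (adjusted p = 0.0111), just past the fold threshold. Its mean CPM ratio of cDNA to Direct RNA was 1.00 in Undiff and 1.31 in Day4 with overlapping libraries in both, so that this call came with the scaling. It was also lost without Direct RNA Undiff replicate 2 (0.90), Direct RNA Day4 replicate 2 (0.73) or cDNA Day4 replicate 2 (0.88).

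The other 6 regulators were not called between the kits. Celf2 had a log2 fold change of 1.33 ± 0.67 (adjusted p = 0.113), which edgeR called at 1.71 (adjusted p = 0.00154) and which DESeq2 called without Direct RNA Undiff replicate 1 (2.22) or cDNA Undiff replicate 2 (1.73). Esrp1, Celf1 and Rbfox2 had -0.62 ± 0.48, -0.45 ± 0.25 and -0.25 ± 0.32. Mbnl1 had 0.21 ± 0.61 and Mbnl2 -0.02 ± 0.36. For Mbnl2 the scale decided the sign: by CPM it was lower in every cDNA library than in every Direct RNA library of its state, and with edgeR the log2 fold change was 0.06.

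Both regulators that were called lower in cDNA share exon bases with genes on the opposite strand that are counted as well. In Ptbp1, 251 of its 4740 annotated exon bases lie under exons of Plppr3 (listed as Lppr3) and 295 under E130317F20Rik. In Esrp2, 219 of 4340 lie under Nfatc3 and 119 under 1810019D21Rik. For the gene counts, the methods say that strandedness was considered and give a strand-specific run for Direct RNA, and they name no setting for cDNA. Reads that fell on more than 1 gene and were given to none made up 2.16% to 2.33% in Direct RNA and 7.65% to 8.45% in cDNA, of these and the reads on genes together. Lppr3 had 0 and 1.10 CPM in Direct RNA Undiff and 35.3 and 70.5 CPM in Direct RNA Day4. Its cDNA levels were 2.11 and 1.44 CPM in Undiff and 60.7 and 72.7 CPM in Day4. Nfatc3 was itself lower in cDNA, with 47.5 to 98.8 CPM in Direct RNA and 2.39 to 9.49 CPM in cDNA. The part of these overlaps in the levels of Ptbp1 and Esrp2 was not tested.

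The change between the states was not shown to differ between the kits for any of the 10. The interaction of platform and state was called for 0 of 10 with DESeq2, against 0.0116% of all genes (2 of 17267 genes with a read), and for 0 of 10 with edgeR, which called 14 genes in all. With DESeq2 none of the 10 had an unadjusted p of at most 0.05, and all adjusted p-values rounded to 1.00. With edgeR the unadjusted p of Celf2 was 0.0191 (2.49, adjusted p = 1.00), and with DESeq2 it was 0.0417 without Direct RNA Undiff replicate 2 (3.54). The interaction was 2.52 ± 1.57 for Celf2 (unadjusted p = 0.109), -2.65 ± 2.47 for Esrp2 and 1.29 ± 1.22 for Mbnl3, in log2 units without shrinkage. Leaving out 1 library in turn gave 0.67 to 3.54 for Celf2, -3.66 to -1.26 for Esrp2 and 0.26 to 2.14 for Mbnl3. For Ptbp2 it was 0.11 ± 0.83, and for Ptbp1 0.17 ± 0.52. The SEs of the 10 interactions ran from 0.52 to 2.47.

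Per kilobase of the longest annotated transcript, the order of the regulators differed between the groups. In Direct RNA Undiff, Ptbp1 had a mean of 216 CPM per kb, followed by Celf1 with 23.7 and Esrp1 with 13.8, and the other 7 had between 1.10 and 5.18. In Direct RNA Day4, Ptbp1 (167) was followed by Ptbp2 (20.6), Rbfox2 (14.5), Celf1 (14.4) and Mbnl2 (9.83), and Esrp1 was at 2.32. In cDNA Undiff, Ptbp1 had 30.3 CPM per kb, Celf1 8.56, Ptbp2 4.63 and Esrp1 4.34. In cDNA Day4, Ptbp1 (30.7) and Ptbp2 (26.9) led, with Mbnl3 at 11.1 and Esrp1 at 1.26. The transcript used for Ptbp2 is a single exon of 4047 bases, and reads of poly(A) RNA may not scale with length, so that this order is a description.

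The genes whose pattern was most like that of a regulator were looked up for the 6 with a mean of at least 20 reads, over the 8 libraries, as Pearson's r of log2(CPM + 1) centred on each platform among 6669 genes of that mean. For Ptbp2 these were Ctps2, Tmco3 and Zfp516 (r between 0.993 and 0.994). For Rbfox2 they were Dab2, Rnf20 and Pttg1ip (0.991 to 0.994) and for Mbnl2 P3h1, Galnt7 and Btf3l4 (0.993 to 0.994). For Mbnl3 they were Dgcr6, Ufsp2 and Rad51b (0.968 to 0.975). For Ptbp1 they were Rbm14, Ddx3x and Vars (0.980 to 0.987), and for Celf1 Srsf2, Elovl6 and Nfx1 (0.977 to 0.988). Among the regulators themselves, Ptbp2 had an r of 0.946 with Rbfox2 and 0.91 with Mbnl2, and Rbfox2 0.925 with Mbnl2. Ptbp1 had an r of 0.689 with Celf1 and -0.10 with Ptbp2. All values share the same 8 libraries and their depth, and genes that differ between the states are alike on this measure by that difference alone.

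Of 32 other splicing regulators, a mean of at least 5 was reached by 15 (Direct RNA) and 19 (cDNA), and the same 3 genes, 1 higher and 2 lower, were called with both kits, while 9.54% (higher) and 7.67% (lower) of all genes were called in Direct RNA and 8.69% and 9.24% in cDNA. The share of the list is near that background and is no result about the list. Zcchc24, a zinc finger RNA-binding protein, had 2.87 and 4.41 CPM in Direct RNA Undiff and 60.0 and 71.9 CPM in Direct RNA Day4, and 6.32 and 5.75 CPM in cDNA Undiff against 34.9 and 46.7 CPM in cDNA Day4. It rose by 3.58 ± 0.86 (log2) with Direct RNA, and by 2.31 ± 0.68 with cDNA (adjusted p = 0.000747 and 0.00955). Rbm47, known as a cofactor of mRNA editing and a splicing regulator of epithelial cells, fell by 3.12 ± 1.01 (log2) in Direct RNA and 3.37 ± 1.11 in cDNA (adjusted p = 0.022 and 0.0263). Its cDNA level was 114 and 220 CPM in Undiff and 2.28 and 25.0 CPM in Day4, and its Direct RNA level was 23.0 and 56.2 CPM in Undiff and 7.06 and 1.36 CPM in Day4, the latter from 2 and 1 reads, below the 3 reads taken as the smallest amount. Rbpms2, a regulator of the smooth muscle state, fell by 2.76 ± 0.43 and 2.48 ± 0.52 (adjusted p = 1.44e-08 and 5.03e-05). The median log2 fold change of the listed genes with that mean was 0.30 in Direct RNA and 0.19 in cDNA. Rbfox1, the neuronal and muscle relative of Rbfox2, had no read in Undiff with either kit. Over both states its mean normalized count was 0.165 in Direct RNA and 0.276 in cDNA, under the minimum of 5. Srrm4, a driver of neuronal microexons, had no read in any Direct RNA library.

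**Figure D4:**
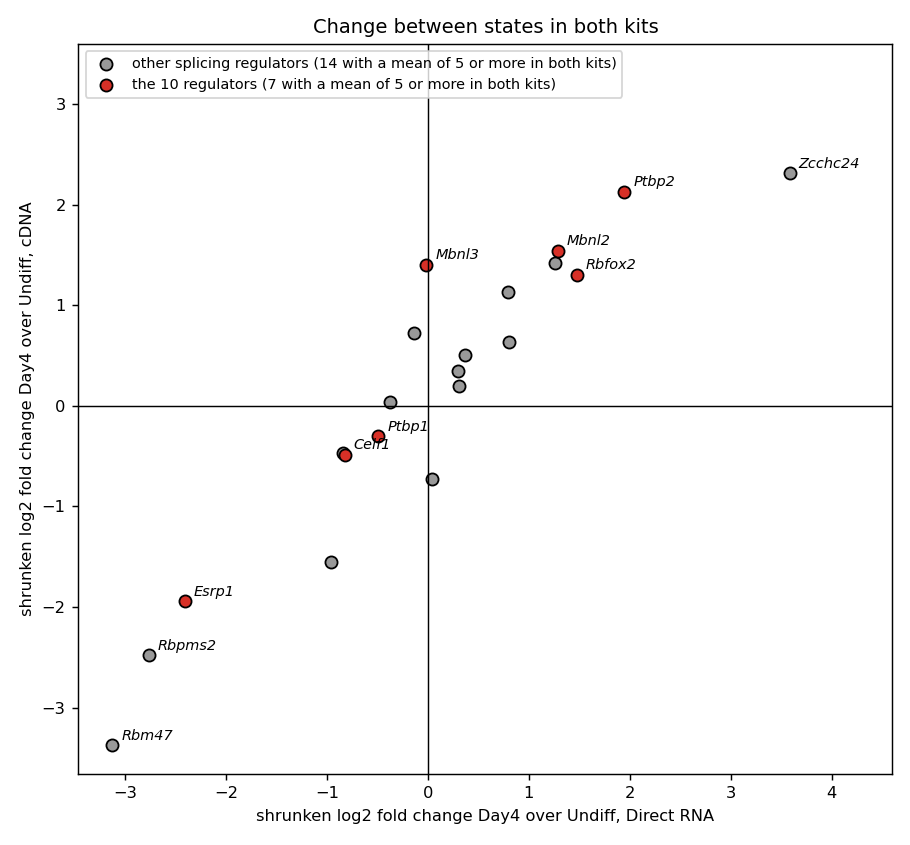
Shrunken log2 fold change of Day4 over Undiff in Direct RNA (horizontal) and cDNA (vertical) for the regulators with a mean normalized count of at least 5 in both kits, 7 of the 10 (red) and 14 of the 32 others (grey). Named grey points were called. Rbm47, Rbpms2 and Esrp1 lie at the lower left and Zcchc24 and Ptbp2 at the upper right, with Mbnl3 at -0.02 in Direct RNA and 1.41 in cDNA.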

How the data were processed

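The authors deposited unnormalized counts of reads for each gene symbol, obtained with HTSeq after minimap2 alignment to mm10 without secondary alignments, and by strand for Direct RNA. The annotation they used was the UCSC one. CPM used reads on genes as the total, and reads given to no gene, between 38.1% and 61.7% of each file, entered no test. Fits used the whole table with DESeq2 1.42.0 in R 4.3.3 (Wald test, shrunken fold changes, Cook's cutoff and independent filtering off), each platform alone for the states, and all 8 libraries between kits. The interaction had no shrinkage and the adjusted p as its one threshold. edgeR 4.0.16 (quasi-likelihood, TMM) was an alternative, beside a replicate block, a filter at 10 reads, no shrinkage, DESeq2's default filters and leaving out each library. Fits were tested on simulated data. Coordinates and lengths are those of GENCODE on GRCm38. Every regulator was to be named, with the other listed genes called on at least 1 platform and the 3 most alike genes. The regulators and lists were chosen with earlier results of these data known. Intervals of levels and shares are 95% Wilson intervals, and those of rate ratios are exact and conditional on the summed reads. Between 283461 and 2088592 reads per library limit the precision to about 3 reads, or 1.44 to 10.6 CPM.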

Additional observations from a re-analysis of the deposited data

How the results depend on the processing

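The number of regulators called between the states was 4 in Direct RNA and 7 in cDNA with edgeR, against 2 and 1 with DESeq2, and over all genes edgeR called 3257 and 3348 against 1660 and 1842. Leaving out 1 library gave 0 called in each Direct RNA fit and 0 to 1 in cDNA. Between the kits it gave 2 to 5, against 4. In the same fits the calls over all genes fell to 393 to 797 in Direct RNA, 709 to 1020 in cDNA and 4775 to 5079 (from 5344) between the kits. In the fits between the states, the lone library of a state was assumed to vary like the other pair. The replicate numbers were not shown to pair the samples, since the deviations of same-numbered libraries correlated at 0.214 (Direct RNA, both states), 0.5 (cDNA), 0.124 (Undiff, both kits) and -0.416 (Day4, both kits) across 1395 genes. With a replicate block 0 regulators were called in Direct RNA, 1 in cDNA, 4 between the kits and 0 for the interaction, and the calls over all genes moved to 843 (Direct RNA) and 1375 (cDNA). In that Direct RNA fit of DESeq2, Ptbp2 had a log2 fold change of 1.83 (adjusted p = 0.251) and Esrp1 one of -2.27 (adjusted p = 0.222). With the Day4 numbers crossed between the kits, chosen after seeing the data, 4 were called between the kits and 0 for the interaction. The filter at 10 reads, no shrinkage and DESeq2's default filters left each of these counts within 1.5 times.

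Signs changed for log2 fold changes that no fit called, and the cause was not tested. With edgeR these were Mbnl3 in Direct RNA (0.25, against -0.02) and Mbnl2 between the kits (0.058, against -0.02). Leaving out 1 library gave ranges of -0.080 to 1.00 for Mbnl1, -0.57 to 0.68 for Mbnl3 and -1.07 to 0.67 for Celf2 between the states in Direct RNA, and -0.69 to 0.11 for Ptbp1 in cDNA. Between the kits the ranges were -0.048 to 0.52 for Mbnl1 and -0.20 to 0.14 for Mbnl2. For the interaction they were -0.18 to 0.65 for Celf1, -1.02 to 1.09 for Esrp1, -0.25 to 0.54 for Mbnl2, -0.13 to 0.53 for Ptbp1, -0.38 to 0.77 for Ptbp2 and -0.51 to 0.22 for Rbfox2. With TMM-scaled totals, CPM came to 0.693 to 0.81 of the values given for Direct RNA, and to 1.16 to 1.49 of those for cDNA. With all reads of a file as the total they came to between 0.412 and 0.607. Depth limits Esrp2, Mbnl1, Mbnl3 and Celf2, with 15 reads or fewer in every Direct RNA library.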
